A study of Mus musculus with 4 samples.

Results

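Cells that carried transcripts of Cd209a, a C-type lectin gene of monocytes and type 2 conventional dendritic cells, were examined among lung leukocytes of mice injected with 4T1, a mammary tumour line of Balb/c origin that colonises the lung. Members were chosen by their own counts: at least 2 Cd209a and 3 H2-Ab1 unique molecular identifiers (UMIs, each marking 1 captured RNA molecule), at most 1 of Xcr1 plus Clec9a, at most 3 of C1qa, C1qb and C1qc, at most 4 of Fscn1, Ccl22 and Zmynd15, and none of Cd3e, Cd3d, Cd3g and Cd79a. Only barcodes with at least 200 genes and at most 10% mitochondrial UMIs were eligible. The rule found 64 cells among 9256 kept barcodes, and they are called Cd209a-gated cells here. Balb/c mice had received wild-type 4T1 cells or 4T1 cells with PD-L1 knocked out by vein, and CD45-selected cells of the perfused, collagenase-digested lungs were captured on day 14. The mice themselves carried no engineered allele in either group, as far as the labels say, and only the injected tumour cells differed. The 2 WT libraries (WT 1 and WT 2) held 12 and 17 members, and the 2 PD-L1 KO libraries (KO 1 and KO 2) held 17 and 18. Every direction rests on the sample labels, because the names of the deposited files carry the other label in both groups. Nothing in the labels ties a library to its own mouse, so p-values cover only the spread between libraries, which may be technical.

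Conventional dendritic cells take up antigen, load it on MHC molecules and present it to T cells. Type 1 cells, marked by Xcr1 and Clec9a, cross-present to CD8 T cells and depend on Irf8, whereas type 2 cells express Sirpa and Itgam, lean on Irf4 and Klf4, and mainly prime CD4 T cells. In mouse lung, Cd209a and Mgl2 are used as markers of type 2 cells, and Flt3, the receptor of the growth factor that drives dendritic cell development, is shared by both types. PD-L1, the product of Cd274, is the ligand of the inhibitory T cell receptor PD-1, the product of Pdcd1.

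The 4 libraries held 2370 to 2736 barcodes and 17618220 to 19635983 UMIs, and 227 to 308 barcodes per library were left out by the filters. No more than 3 barcode sequences were shared by any pair of libraries. Cd274 stood at 31.0 and 24.1 CPM (UMIs of a gene over all UMIs of the cells summed, scaled to a fixed total) in whole libraries in WT 1 and WT 2, and at 47.5 and 38.9 CPM in KO 1 and KO 2. The leukocytes carry the intact host gene, so these values do not check the knockout in the tumour cells. Members summed to 150770, 165396, 186687 and 187351 UMIs in WT 1, WT 2, KO 1 and KO 2. Their median depth was 9162.5 to 10305 UMIs per cell, over a range of 1726 to 30292.

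Cd209a-gated cells made up 0.478% of kept barcodes in WT 1 (95% exact binomial interval 0.247 to 0.834), 0.704% in WT 2 (0.411 to 1.12), 0.749% in KO 1 (0.437 to 1.20) and 0.873% in KO 2 (0.518 to 1.38). Both KO libraries lay above both WT libraries, but the intervals, which cover counting error only, overlapped throughout. The mean share was 0.591% ± 0.160 (SD, n = 2) in WT and 0.811% ± 0.0877 (SD, n = 2) in KO libraries, a difference of 0.220 percentage points. The exact two-sided permutation test gave p = 0.333, the smallest value it can give with 2 against 2 libraries, so this test could make no call. With C1q genes at 0 UMIs, mitochondrial UMIs at no more than 5%, or no mitochondrial limit, the groups overlapped and p was 0.667. The gated dendritic cells were these members, Xcr1 dendritic cells and mature dendritic cells. Of them, members made up 23.9% ± 0.535 (SD, n = 2) in WT and 34.0% ± 0.962 (SD, n = 2) in KO libraries. The difference was 10.1 percentage points, with the same smallest exact permutation p of 0.333. An SD of 2 libraries is itself uncertain, and the counting error of these shares was not computed. The denominator was only 51, 70, 49 and 54 cells in WT 1, WT 2, KO 1 and KO 2. The other classes in that denominator differed too: Xcr1 cells made up 1.20% and 1.61% of kept barcodes in WT 1 and WT 2 and 1.06% and 1.07% in KO 1 and KO 2. Thinned to 2000 UMIs per barcode before the rule was applied, the shares were 0.328% and 0.646%.

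Cd209a itself (chromosome 8, 3743397 to 3748984 in mm10, minus strand) had a median of 9, 5, 10 and 6.5 UMIs per member in WT 1, WT 2, KO 1 and KO 2, with a highest cell of 32. The H2-Ab1 gene, the beta chain of an MHC class II molecule, had medians of 100.5, 71, 123 and 100.5 UMIs per member. These genes chose the cells, so their levels are a description. Just outside the limit, 21 cells had 1 Cd209a UMI, and 7 of them carried Mgl2. Just inside, 7 cells had 2 UMIs and 2 of these carried Mgl2, against 31 of 57 cells with 3 or more.

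The label of type 2 dendritic cells was checked on markers outside the rule. Only some of 21 listed type 2 markers are given here, with Il1rl1 and Irf8 added, and some that fitted less well follow below. Library sums of members were set beside those of 115 Xcr1 dendritic cells and of 356 classical monocytes, gated by the presence of Ly6c2, Ccr2 and Lyz2. Mgl2, a galactose-binding lectin gene, stood at 736, 1155, 1612 and 897 CPM in WT 1, WT 2, KO 1 and KO 2, against 15.7 to 31.6 CPM in Xcr1 cells and at most 1.74 in monocytes. Every member library was thus above every library of the other classes. Ccl17, a chemokine of type 2 cells that attracts CCR4-bearing T cells, lay at 292 to 715 CPM against at most 62.1 in Xcr1 cells. It did not separate members from mature dendritic cells, which had 160 to 3352 CPM of it. Irf4, their transcription factor, lay at 26.5 to 109 CPM against at most 2.70, and Sirpa, an inhibitory receptor that binds Cd47, at 157 to 257 CPM against at most 62.6. Tnip3, an inhibitor of NF-kB signalling, lay at 673 to 907 CPM against at most 73.7, and Itgam, the integrin CD11b, at 74.7 to 186 CPM against at most 10.8. Il1rl1, the receptor for interleukin-33, lay at 32.0 to 118 CPM and at no more than 6.5 in Xcr1 cells. Irf8 showed the opposite order, with 219 to 459 CPM in members and 2360 to 2560 in Xcr1 cells. Sirpa and Itgam did not separate members from monocytes, which had 307 to 401 and 120 to 185 CPM of them.

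Flt3, the third gene named with the rule, fitted less well. It stood at 19.9, 48.4, 69.6 and 53.4 CPM in WT 1, WT 2, KO 1 and KO 2, below the 94.0 to 137 CPM of Xcr1 cells and above the 3.22 to 8.93 CPM of monocytes. A Flt3 UMI was seen in 19 of 64 members and in 82 of 115 Xcr1 cells. In 2139 T cells (at least 3 Cd3 UMIs), which should lack it, 3.51% had a Flt3 UMI at a median depth of 6169 UMIs, against 29.7% of members at 10005. Mgl2 had a UMI in 51.6% of members and in 9.26% of T cells, and Cd209d in 53.1% and 2.01%. Other genes of the Cd209 cluster on chromosome 8 were also carried by members: Cd209d at 171 to 230 CPM, Cd209b at 26.7 to 112.5 CPM, and Cd209c at 6.63 to 74.7 CPM. In Xcr1 cells Cd209b was at 0 in each library and Cd209d at 17.3 CPM or less. The genes of this cluster are near copies of each other, so how the authors' counting split reads between them is uncertain. Cd209f and Cd209g had no UMI in members.

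**Figure D1:**
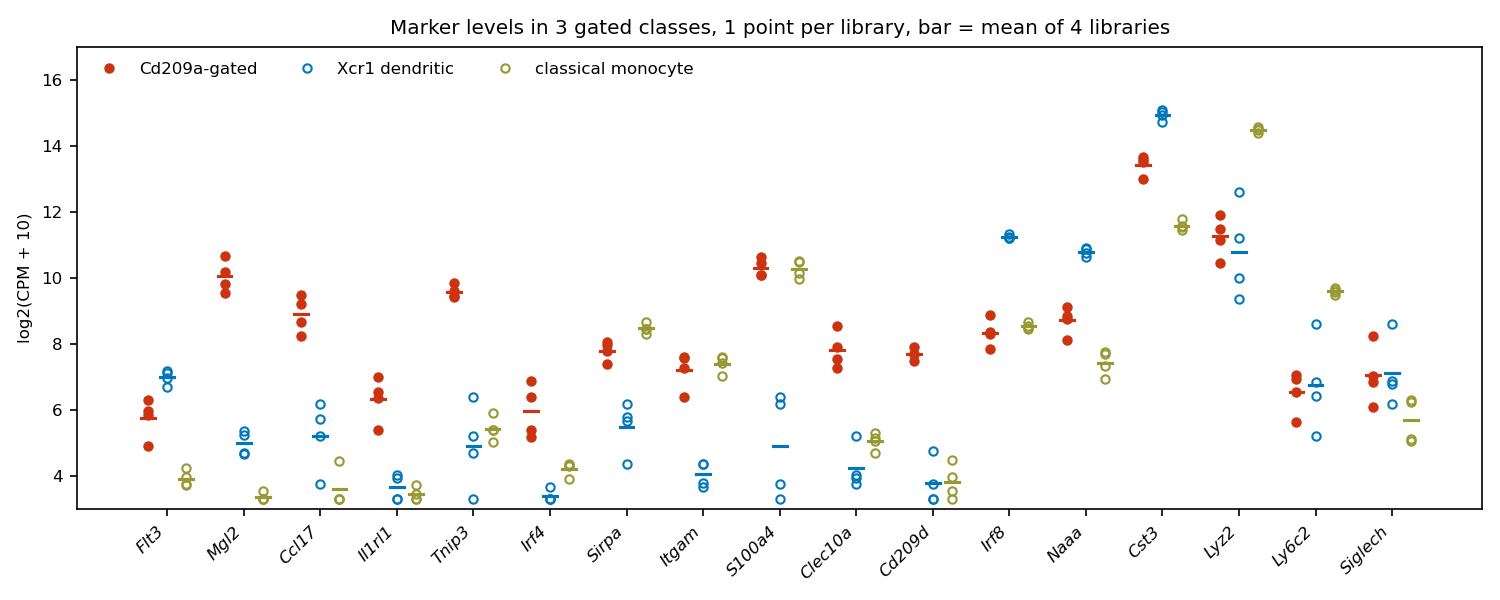
Levels of marker genes as log2(CPM + 10) on the y axis, for 17 genes on the x axis, in Cd209a-gated cells (filled red), Xcr1 dendritic cells (open blue) and classical monocytes (open olive). Each point is 1 library and each bar the mean of 4. Mgl2, Ccl17, Tnip3 and Cd209d separate the members from both other classes, whereas Flt3 lies between them.

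The 64 members were not uniform. Groups were described by limits on marker UMIs that were set after the values had been seen, so they carry no test. In 31 cells Mgl2 had 2 to 51 UMIs, and in the other 33 it had at most 1. Of these 31, 27 fell in no other group, with 4, 6, 10 and 7 of them in WT 1, WT 2, KO 1 and KO 2. A group of 6 cells (1, 1, 1 and 3) had 9 to 25 UMIs of Siglech, a receptor of plasmacytoid dendritic cells, and no other member had more than 2. The same 6 cells held the Klk1 and Cox6a2 UMIs of the members, and Mgl2 reached 2 UMIs in none of them. Lyz2, the lysozyme gene of monocytes and macrophages, had 57 to 299 UMIs in 12 cells and at most 39 elsewhere. In 8 of these 12 cells no other group's limit was met, and their sum held 1711 CPM of Apoe and 864 CPM of Cebpb, against 13.7 and 34.3 CPM in the Mgl2 group. Apoe had a UMI in 5 of the 8 cells and Cebpb in 7. Of the 107 Apoe UMIs, 62 were in 1 cell of KO 1 and 31 in 1 cell of WT 2. S100a8 plus S100a9, alarmin genes of neutrophils, had 261 to 778 UMIs in 5 cells (1, 2, 2 and 0) and at most 7 in any other member. Ctsd, the protease cathepsin D, had 52 to 59 UMIs in 3 cells (0, 0, 2 and 1) and at most 7 elsewhere. Cenpf, a kinetochore gene of dividing cells, had 35 and 39 UMIs in 1 cell of each WT library and at most 2 elsewhere. The Cenpf cell of WT 2 also had 232 UMIs of Gzma, a granzyme gene of cytotoxic lymphocytes, and carried Mgl2. With these mixtures the rule cannot be said to hold type 2 dendritic cells alone. The 45 to 60 barcodes of highest Scrublet doublet score per library held 1 member. That number of barcodes was fixed beforehand from the barcode count, at 0.8% per 1000 barcodes. It therefore does not say how many members are doublets.

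**Figure D2:**
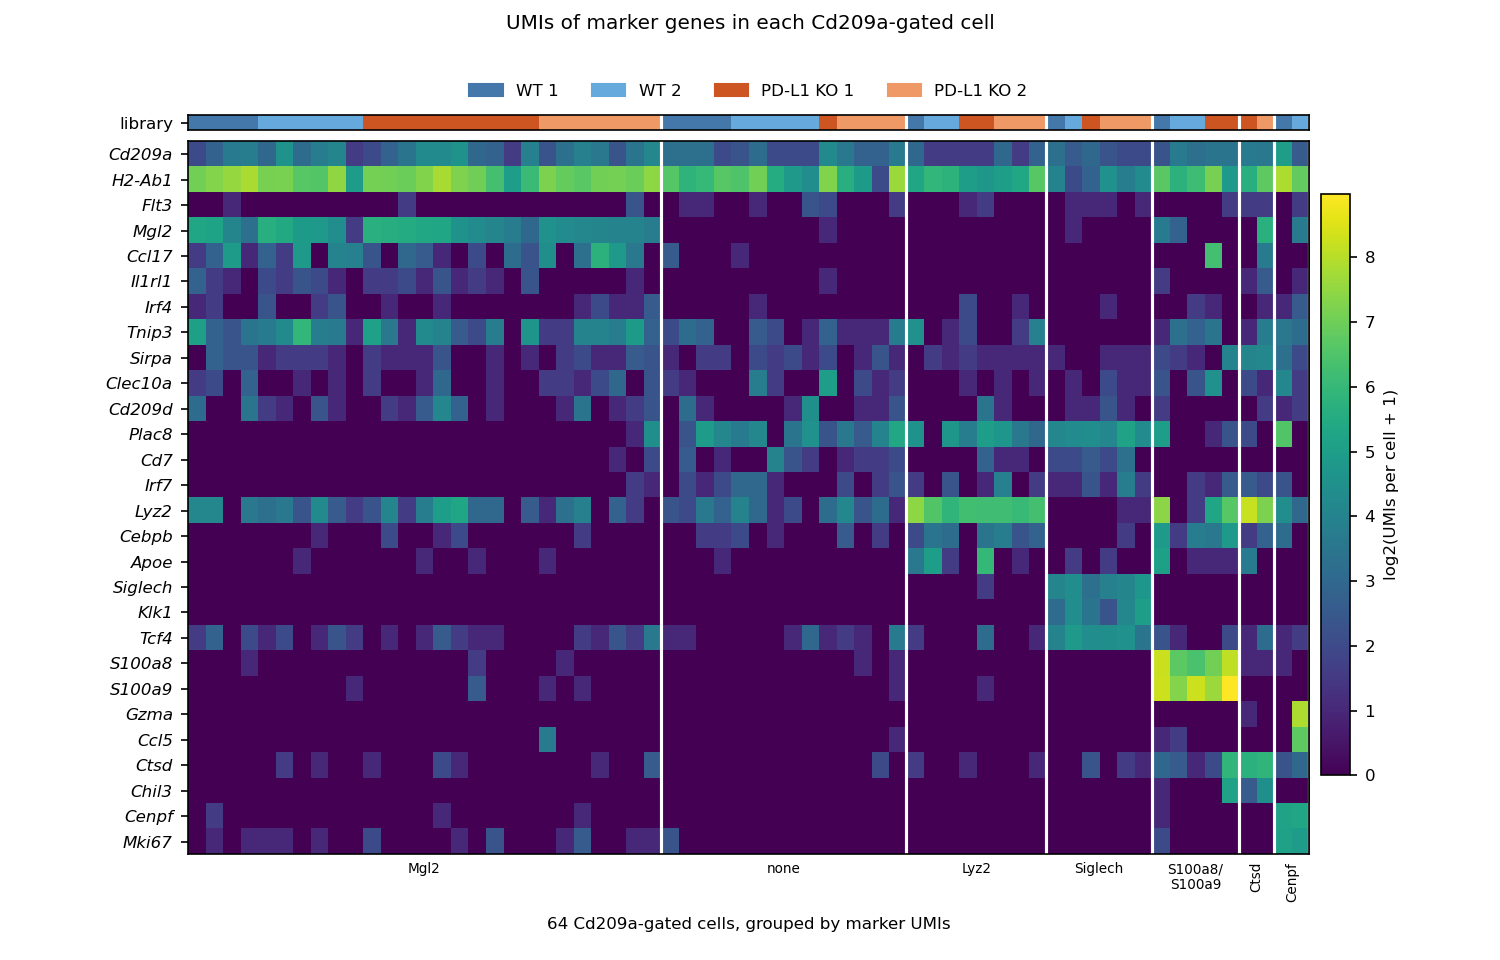
UMIs of 28 marker genes (rows, colour as log2(UMIs per cell + 1)) in each of the 64 Cd209a-gated cells (columns), with the library as the strip on top. Cells are ordered by group: Mgl2 (27), no group (14), Lyz2 and no other group (8), Siglech (6), S100a8/S100a9 (5), Ctsd (2, a further cell stands under S100a8/S100a9) and Cenpf (2).

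The 27 cells of the Mgl2 group and the 14 cells in no group (4, 5, 1 and 4 by library) differed in more than Mgl2. By pooled CPM, the Mgl2 group had 884 against 45.5 CPM of Ccl17, 312 against 30.3 of Mrc1, the mannose receptor, 147 against 7.58 of Il1rl1, 89.1 against 7.58 of Irf4 and 199 against 7.58 of Epcam, an adhesion molecule. It also held more of the class II gene H2-Ab1, with 12150 against 8060 CPM. The cells in no group had 1418 against 75.4 CPM of Plac8, 265 against 13.7 of Cd7, with 15 of its 35 UMIs in 1 cell of WT 2, and 91.0 against 23.99 of Flt3. Several interferon-stimulated genes stood higher in them too, with 235 against 10.3 CPM of Irf7 and 182 against 27.4 of Isg15. Cd209a differed less, at 956 CPM in the Mgl2 group and 789 in the cells in no group. Other listed type 2 markers did not follow Mgl2. Clec10a stood at 147 CPM in the Mgl2 group and 417 in the cells in no group, with 31 of the latter's 55 UMIs in 1 cell of KO 1. Clec4a4, Esam and Ffar2 had 0 UMIs in the Mgl2 group and 2, 1 and 4 in the cells in no group. These values pool cells of 4 libraries, have no replicate check, and were picked after the values had been seen.

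Between the WT and KO libraries, Cenpf was the 1 gene called among 2849 tested in sums over the members, a background of 0.0351% (edgeR's quasi-likelihood test, adjusted p of 0.05). It was lower in the KO libraries, and no gene was called higher. Without adjustment, 53 genes were higher (1.86%) and 73 lower (2.56%) at p under 0.05. Cenpf (chromosome 1, 189640606 to 189688086, minus strand) stood at 252 and 236 CPM in WT 1 and WT 2 and at 5.36 and 5.34 CPM in KO 1 and KO 2. The fitted difference was -5.38 on the log2 scale (SE 0.49, edgeR adjusted p = 0.0064). Of its UMIs, 35 of 38 in WT 1 and 39 of 39 in WT 2 came from 1 cell each. These were the deepest member of each WT library, and the call says nothing of the other members. Where values without the small marker groups are given below, the Siglech, S100a8/S100a9, Gzma, Ctsd and Cenpf cells were left out, a choice made after the values had been seen. With mitochondrial UMIs at no more than 5%, Cenpf was not among the genes tested and Abcg1 and Ctsd were called instead. Leaving out WT 1, WT 2, KO 1 or KO 2 gave 13, 23, 38 and 8 called genes. In each of these fits 1 group has a single library, which is assumed to vary like the 2 of the other group.

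Other cell division genes were lower in the KO libraries without being called, and Mki67 had most of its WT UMIs in the Cenpf cells. Mki67, a marker of proliferation, stood at 285, 199.5, 42.9 and 42.7 CPM in WT 1, WT 2, KO 1 and KO 2 (log2 difference -2.53, SE 0.37, edgeR adjusted p = 0.086), with 34 of 43 and 30 of 33 UMIs of the WT libraries in 1 cell each. Ube2c, which helps to degrade mitotic proteins, stood at 312, 109, 21.4 and 5.34 CPM, and Prc1, a spindle midzone protein, at 92.9, 84.7, 5.36 and 5.34 CPM. Both KO libraries were below both WT libraries for each of these genes, and neither of the last pair was called. Of the cell cycle list of 30 genes, 12 were tested, 11 were lower in KO libraries, 8 of these at an unadjusted p under 0.05 (background 2.56%), and the median log2 difference was -1.74. Over all genes tested, 50.2% were higher and the median was 0.00. Without WT 1 the median of the list was -0.67. Without the small marker groups, which include the Cenpf cells, the sign turned for some tested members of the list. The Cenpf cells were in WT libraries only, so leaving them out favours higher ratios for cell division genes and is no test. The log2 ratio of group means was then 1.44 for Birc5, 0.49 for Hmgb2 and 0.27 for H2afz, and -0.56 for Cenpf, with few UMIs left for Birc5 and Cenpf. The 11 lower genes are thus not read as a drop across the members. The promoters of 3 of these genes are shown because these cell division genes are among those of smallest p. The 150 bases before the start are from RefSeq (GRCm38.p6), 5′ to 3′ on the gene's strand, with CCAAT boxes (CCAAT) and the cell cycle homology element (TTTGAA), searched on both strands, in capitals.
Cenpf, chr1:189688087-189688236, minus strand: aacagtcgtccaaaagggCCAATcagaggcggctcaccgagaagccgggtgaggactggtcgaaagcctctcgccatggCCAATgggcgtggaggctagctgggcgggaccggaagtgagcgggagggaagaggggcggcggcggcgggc
Mki67, chr7:135716380-135716529, minus strand: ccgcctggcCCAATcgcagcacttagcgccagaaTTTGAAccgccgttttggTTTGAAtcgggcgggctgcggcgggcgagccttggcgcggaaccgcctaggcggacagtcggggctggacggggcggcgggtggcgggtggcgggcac
Ube2c, chr2:164769779-164769928, plus strand: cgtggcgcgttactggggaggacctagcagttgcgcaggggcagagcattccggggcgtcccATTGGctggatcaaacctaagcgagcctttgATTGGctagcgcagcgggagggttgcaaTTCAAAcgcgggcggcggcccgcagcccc
Of 32851 RefSeq promoters, 33.8% held CCAAT within 250 bases and 16.0% held TTTGAA. The 3 genes were chosen by their rank in the comparison. A match of letters is a description and not a bound site.

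A further set of genes stood higher in the KO libraries, of which Ctsd, Abcg1 and Chil3 lay largely in the 3 Ctsd cells. Ctsd stood at 86.2, 96.7, 664 and 379 CPM in WT 1, WT 2, KO 1 and KO 2 (log2 difference 2.45, SE 0.38, edgeR adjusted p = 0.086). Abcg1, a cholesterol exporter, stood at 19.9, 36.3, 289 and 203 CPM (log2 difference 3.03, SE 0.44, edgeR adjusted p = 0.086). Chil3, a chitinase-like gene of alveolar macrophages and monocytes, had 1, 0, 40 and 21 UMIs, and 35 and 21 of those in KO 1 and KO 2 came from 1 cell each. Groups did not overlap for these 3 genes, nor for Plet1 (39.8, 30.2, 139 and 176 CPM), a surface protein of alveolar macrophages. None was called by edgeR in that comparison, but DESeq2 called Ctsd, the fit with the replicate block Chil3, and sums thinned to the smallest library Abcg1, Chil3 and Ctsd. Of the 13 alveolar macrophage markers, 7 were tested and 7 were higher, 6 at an unadjusted p under 0.05 (background 1.86%), with a median log2 difference of 2.10. Their summed level was 484 and 713 CPM in WT 1 and WT 2 and 2571 and 1479 CPM in KO 1 and KO 2, with Krt79 at 0. Ear2 and Mrc1 of this list also stood higher in the Mgl2 group than in the cells in no group (411 against 68.2 and 312 against 30.3 CPM). Without the small marker groups the log2 ratio of group means of Ear2 was 0.55. The cell with most Abcg1 held 37 of 54 UMIs in KO 1 and 34 of 38 in KO 2, and both were Ctsd cells. Without the small marker groups that ratio was 0.068 for Abcg1 and 1.34 for Ctsd, on few UMIs, and Chil3 had 0 UMIs. The Ctsd cells were chosen on Ctsd and were in KO libraries only, so leaving them out favours lower ratios and is no test. With Cd209a at 1 UMI or more the median of the list was 0.62, and without the highest doublet scores 1.24.

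**Figure D3:**
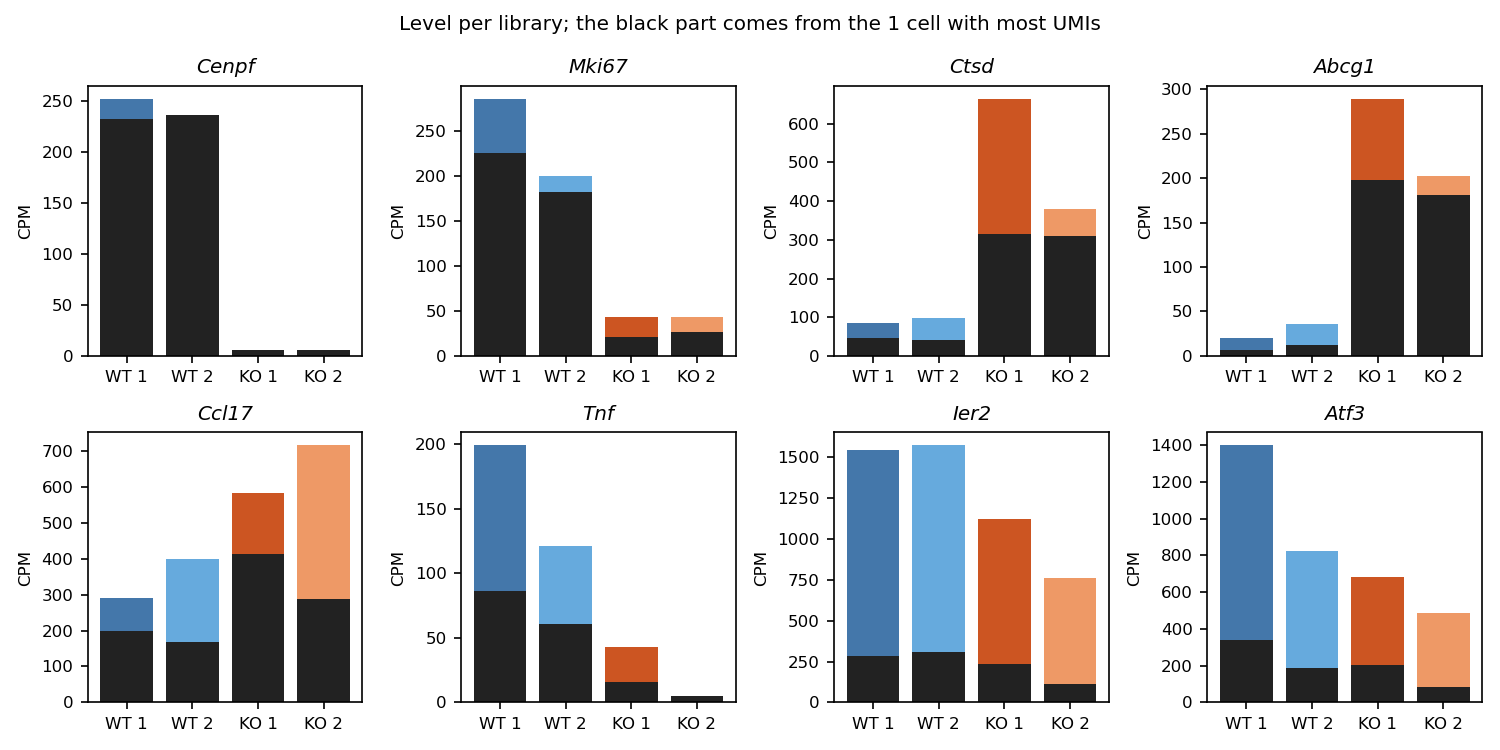
CPM per library (y axis, from 0) of 8 genes in Cd209a-gated cells of WT 1, WT 2, KO 1 and KO 2. The black part of each bar comes from the 1 cell with most UMIs of that gene. Cenpf in WT libraries is nearly all black, as are Mki67 in WT 2 and Abcg1 in KO 2, whereas Ier2 and Atf3 are spread over cells.

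Some genes differed over more cells, and edgeR called none of them in the comparison of all 4 libraries. Tnf, the inflammatory cytokine, had 30, 20, 8 and 1 UMIs in WT 1, WT 2, KO 1 and KO 2, or 199, 121, 42.9 and 5.34 CPM (log2 difference -2.74, SE 0.63, edgeR adjusted p = 0.42), and the cell with most held 13 of the 30 and 10 of the 20. Its log2 ratio of group means was -2.44 without the small marker groups. Tnf is also the top member of the cytokine list, of which 16 of 31 genes were tested, 13 were lower in KO libraries, 1 had an unadjusted p under 0.05 (background 2.56% lower), and the median was -0.37. Il1b, another inflammatory cytokine, stood at 2030, 1524, 1607 and 689 CPM, with overlapping groups. Tgfb1 overlapped as well, at 279, 435, 284 and 214 CPM.

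Immediate early genes, which are switched on within minutes of stimulation or tissue digestion, leaned the same way. All 22 were tested, 17 were lower in the KO libraries, and 5 of these had an unadjusted p under 0.05 (background 2.56%), with a median log2 difference of -0.27. Ier2 stood at 1545, 1572, 1120 and 763 CPM in WT 1, WT 2, KO 1 and KO 2 (log2 difference -0.77, SE 0.23, edgeR adjusted p = 0.82), and no cell held more than 51 of the 260 UMIs in WT 2. Atf3, a stress-induced transcription factor, stood at 1399, 822, 680 and 486 CPM, Fosb at 617, 689, 402 and 416 CPM, and Dusp2, a phosphatase of MAP kinases, at 186, 260, 113 and 107 CPM. KO libraries were below WT libraries for these 4 genes. Without KO 2, which had the lowest level of Ier2 and Atf3, the median of the list was 0.10, and without KO 1 it was -0.75. Digestion time by library was not given in the sources used here.

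Antigen presentation genes differed little. Of the MHC class II list 11 members were tested beside H2-Ab1, 6 higher and 5 lower, with a median of 0.04 and a range of -0.38 to 0.62. Ctss, the cathepsin that trims the invariant chain, stood at 1074, 871, 1586 and 1153 CPM (log2 difference 0.45, SE 0.23, edgeR adjusted p = 0.97). H2-DMb2, a part of the peptide-loading catalyst, stood at 458, 556, 263 and 550 CPM, with overlap. Of the MHC class I list 16 were tested, 10 higher, with a median of 0.11. Psmb9, an immunoproteasome subunit, stood at 159, 133, 214 and 235 CPM (log2 difference 0.57, SE 0.30, edgeR adjusted p = 0.97), and Tapbp, which loads class I molecules, at 206, 181, 252 and 288 CPM. Both KO libraries were above both WT libraries for 4 of the 16 (background 18.5%) and below for 0 (14.6%).

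Uptake and lectin genes showed no called difference either. Of 22 tested uptake and protease genes 12 were higher, near the 50.2% of all genes. Both KO libraries were above both WT libraries for 10 of the 22 (background 18.5%) and below for 4 (14.6%). At an unadjusted p under 0.05, 4 were higher (background 1.86%) and 1 lower (2.56%), with a median of 0.18 over the list. Ctsd and Axl, a receptor for apoptotic cells (26.5, 60.5, 182 and 90.7 CPM), were among the 4. Axl had a log2 ratio of group means of 0.27 without the small marker groups. Mrc1 was also among them, at 146, 163, 482 and 272 CPM (log2 difference 1.23, SE 0.36, edgeR adjusted p = 0.82), and its log2 ratio of group means was 1.30 without the small marker groups. Within the Mgl2 group it stood at 137, 284, 444 and 282 CPM, and the groups overlapped. Cst3, the protease inhibitor cystatin C, went the other way, with 13060, 12230, 11610 and 8129 CPM. Of 13 tested lectin and Fc receptor genes 9 were higher, with a median of 0.24, and of -0.31 without KO 1. Among them Clec4n stood at 53.1, 78.6, 91.1 and 155 CPM, and Clec10a overlapped, at 232, 145, 364 and 176 CPM. Mgl2 overlapped as well (log2 difference 0.36, SE 0.33, edgeR adjusted p = 0.98). Of 24 tested transcription factors 7 were higher and 17 lower, with a median of -0.17.

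**Figure D4:**
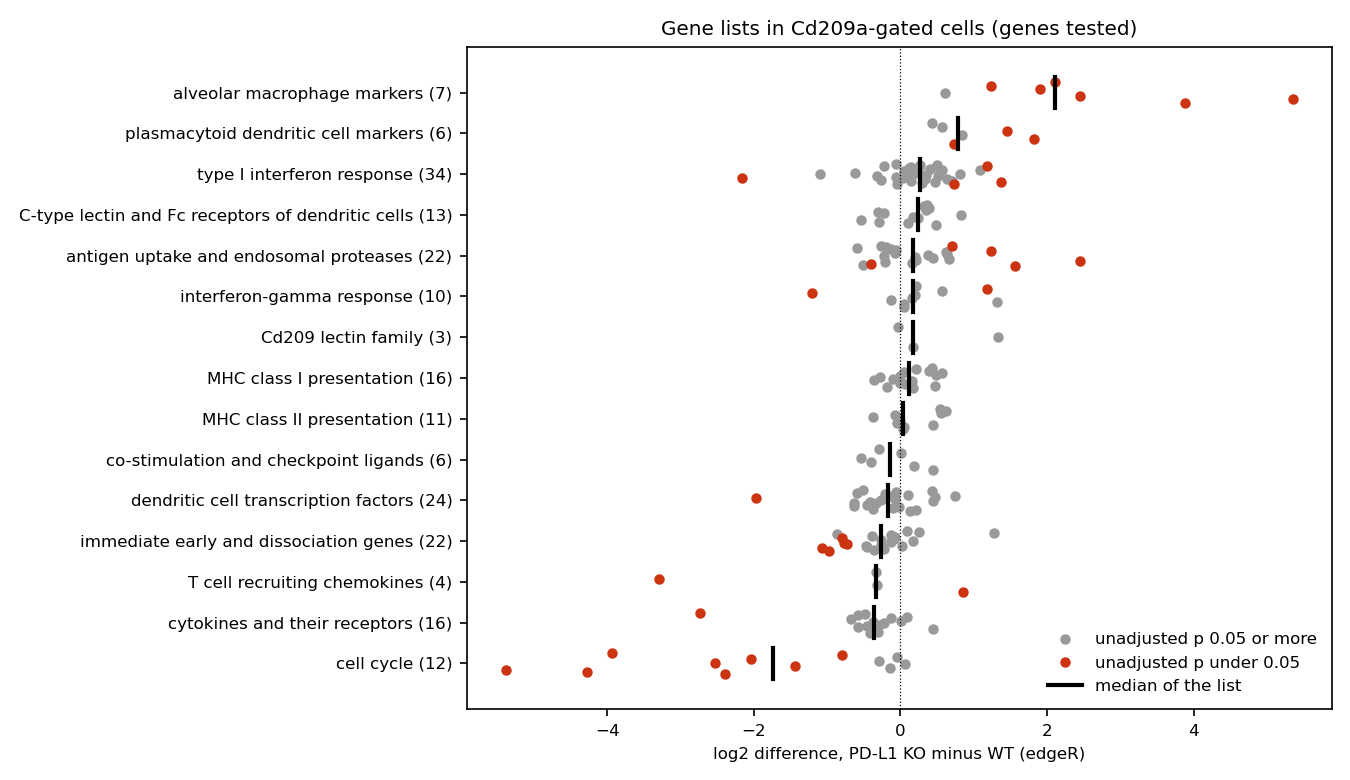
Log2 difference, KO minus WT libraries (x axis, edgeR), of each tested gene in 15 lists (y axis, genes tested in brackets), with the list median as a bar. Red points have an unadjusted p under 0.05. Alveolar macrophage markers and the cell cycle list lie farthest from 0 (medians 2.10 and -1.74), and the antigen presentation lists lie near it.

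Of the chemokines that recruit T cells, Ccl17 stood at 292, 399, 584 and 715 CPM in WT 1, WT 2, KO 1 and KO 2 (log2 difference 0.85, SE 0.26, edgeR adjusted p = 0.82). Groups did not overlap, but 30 of 44, 28 of 66, 77 of 109 and 54 of 134 UMIs came from 1 cell in each library, and without the small marker groups the log2 ratio of group means was 0.11. Ccl5 had 1, 108, 0 and 13 UMIs, of which 106 in WT 2 were in the Gzma cell. Of the T and NK cell markers, 13 of 15 had a UMI, and their sum was 159 and 1953 CPM in WT 1 and WT 2 and 85.7 and 155 CPM in KO 1 and KO 2. Cxcl9, an interferon-gamma-induced chemokine, had 0, 0, 2 and 7 UMIs. A Cxcl9 UMI was seen in 3.13% of members and in 10.5% of T cells. Of the 9 UMIs in members, 7 were in 1 cell of KO 2, and 1 T cell of KO 1 held 276. Where these UMIs come from was not tested. Xcr1 cells reached 657 CPM of Cxcl9 in their highest library, against 37.4 CPM in members.

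Cd274 had 2, 0, 6 and 7 UMIs in WT 1, WT 2, KO 1 and KO 2, too few to be tested. Pooled, this is 6.33 CPM (95% Poisson interval 0.766 to 22.9, counting error only) in WT and 34.8 CPM (18.5 to 59.4) in KO libraries. In KO 1, 5 of the 6 UMIs were in 1 cell, so these intervals are too narrow. Without the small marker groups, 1, 0, 0 and 7 UMIs were left in WT 1, WT 2, KO 1 and KO 2. A Cd274 UMI was seen in 14.1% of members and in 16.5% of T cells, and whether T cells lack this gene was not tested. By group it was seen in 2 of 29 WT and 7 of 35 KO members. In T cells it was seen in 56 of 518, 78 of 601, 120 of 571 and 100 of 449 cells of WT 1, WT 2, KO 1 and KO 2. Pdcd1 had no UMI in 64 members, which allows a share of cells with a UMI of up to 4.69%. Of the other co-stimulatory and checkpoint genes 6 were tested, 3 of them higher and 3 lower. Cd47, the ligand of Sirpa, stood at 478, 435, 750 and 528 CPM without overlap (log2 difference 0.44, SE 0.26, edgeR adjusted p = 0.97). Cd86, a co-stimulatory ligand, stood at 159, 115, 96.4 and 117 CPM, with overlap.

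Type I interferons signal through the receptor chains Ifnar1 and Ifnar2 to genes whose promoters often hold the interferon-stimulated response element. Of 86 list genes 83 were in the files, 80 had a UMI in members and 34 were tested. Of these 25 were higher and 9 lower in KO libraries, with a median log2 difference of 0.26 and 0 called. Both KO libraries were above both WT libraries for 9 of the 34 (background 18.5%) and below for 2 (14.6%). Eif2ak2, the kinase that halts translation on viral RNA, stood at 33.2, 24.2, 69.6 and 85.4 CPM (log2 difference 1.37, SE 0.53, edgeR adjusted p = 0.97). Bst2, a membrane tether of virions that is also a marker of plasmacytoid cells, stood at 199, 254, 354 and 432 CPM (log2 difference 0.74, SE 0.27, edgeR adjusted p = 0.97). Without the small marker groups, the log2 ratio of group means was 1.14 for Eif2ak2 and 0.29 for Bst2. With mitochondrial UMIs at no more than 5%, the log2 difference of Bst2 turned to -0.39. Ifitm1, a membrane restriction factor, went the other way, at 531, 175, 150 and 10.7 CPM, with 78 of the 80 UMIs of WT 1 in 1 cell. Isg15, a ubiquitin-like modifier, also stood lower, at 199, 175, 37.5 and 144 CPM (log2 difference -1.09, SE 0.49, edgeR adjusted p = 0.97), with a log2 ratio of -0.14 without those groups. Members of the list thus did not move together. Of 10 tested genes of the interferon-gamma list 8 were higher, with a median of 0.18, but Irf1, a transcription factor induced by that cytokine, stood at 119, 96.7, 53.6 and 42.7 CPM.

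Per cell, the type I interferon list took a median of 0.691%, 0.479%, 0.789% and 1.09% of UMIs in members of WT 1, WT 2, KO 1 and KO 2. As sums the shares were 1.15%, 0.762%, 0.814% and 1.16%, so WT 1 and KO 2 were alike, and the Cenpf cell of WT 1 gave 698 of the 1729 list UMIs of that library. Thinned to 2000 UMIs, members had medians of 12.5, 11, 18.5 and 22.5 list UMIs, with 1 shallower cell of KO 1 left out. In the Mgl2 group the median share was 0.362%, 0.336%, 0.415% and 0.914%, so KO 2 stood apart from the other 3 libraries. Without KO 2 the median log2 difference of the list was -0.20. KO 2 also held 3 of the 6 Siglech cells. Of the plasmacytoid markers, 6 of 12 were tested and 6 were higher, 3 at an unadjusted p under 0.05 (background 1.86%), with a median of 0.79, and of -0.20 without KO 2. Their summed level was 796 and 1119 CPM in WT 1 and WT 2 and 1055 and 2317 CPM in KO 1 and KO 2. Without the Siglech cells the list took a median of 0.822%, 0.458%, 0.637% and 1.13% of UMIs per cell, and the groups overlapped.

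**Figure D5:**
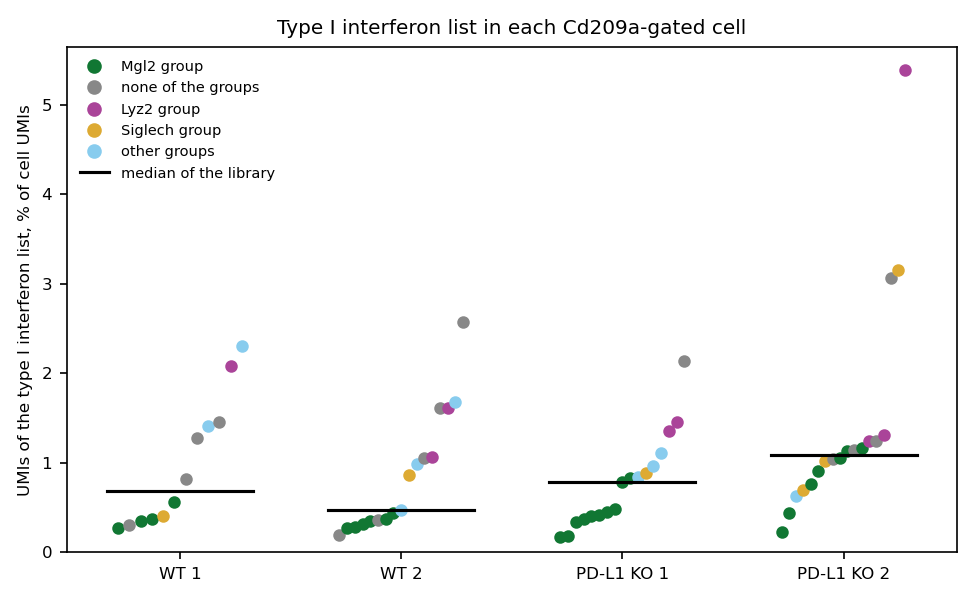
Share of each member's UMIs in the type I interferon list (y axis, %), by library (x axis), coloured by marker group, with the library median as a line (0.691%, 0.479%, 0.789% and 1.09%). Mgl2-group cells (green) have medians of 0.362%, 0.336% and 0.415% in WT 1, WT 2 and KO 1, and of 0.914% in KO 2.

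The promoters of Isg15 and Bst2 are shown as examples of list members that hold the element, and the sign for Bst2 depends on the mitochondrial limit. Each is the 150 bases before the start, from RefSeq (GRCm38.p6), 5′ to 3′ on the gene's strand, with the core of the interferon-stimulated response element (GAAA, any 2 bases, GAAA, searched on both strands, overlapping matches merged) in capitals.
Isg15, chr4:156200819-156200968, minus strand: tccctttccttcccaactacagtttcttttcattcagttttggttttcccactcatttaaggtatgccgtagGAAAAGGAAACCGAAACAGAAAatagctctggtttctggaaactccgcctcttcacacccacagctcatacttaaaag
Bst2, chr8:71537473-71537622, minus strand: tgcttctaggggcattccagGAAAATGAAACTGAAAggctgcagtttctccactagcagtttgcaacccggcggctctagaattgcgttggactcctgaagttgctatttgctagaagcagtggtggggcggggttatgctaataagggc
Of the 34 tested list genes 27 had a RefSeq promoter, and the letters were found within 250 bases in 9 of them (33.3%), against 2.98% of 32851 promoters. The windows of Eif2ak2 and Ifitm1 held no match, which says only that these letters are not there.

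Whether the members differed between KO and WT libraries in another way than neighbouring cells was tested directly, as the difference of the changes, with the library as a block. Against Xcr1 dendritic cells 0 of 4045 genes were called (205 at an unadjusted p under 0.05, 5.07%), and against classical monocytes 0 of 5782 (265, 4.58%). The smallest p against Xcr1 cells belonged to Abcg1, with 4.27 (SE 0.57, edgeR adjusted p = 0.085), followed by Ifitm1, with -4.29 (SE 0.60, edgeR adjusted p = 0.085). Against monocytes it belonged to Chil3, with 4.56 (SE 0.76, edgeR adjusted p = 0.10), followed by Nfkbia, the inhibitor of NF-kB, with -1.24 (SE 0.22). Isg15 stood 1.98 lower on that scale (-1.98, SE 0.36, edgeR adjusted p = 0.10). For Abcg1 and Chil3 in KO libraries, and Ifitm1 in WT 1, most member UMIs lay in 1 cell per library, as given above. Cenpf differed by -4.99 (SE 1.15, edgeR adjusted p = 0.36) from its change in Xcr1 cells. In those cells alone, 0 of 4187 genes were called between KO and WT libraries by edgeR, and 189 had an unadjusted p under 0.05 (4.51%). In classical monocytes alone, 43 of 6800 were called (0.632%), 4 higher and 39 lower, and 458 had an unadjusted p under 0.05 (6.74%). Leaving out 1 library at a time gave 0 to 53 called differences against Xcr1 cells, with 53 without KO 2 and 19 without WT 1, and 0 to 4 against monocytes.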

How the data were processed

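The authors deposited, per the file headers and values, whole-number UMI counts per gene and barcode, from 10x Genomics 3' version 3 libraries. The submitters' processing notes name mm10, STAR and Cell Ranger 3.1.0. The gene annotation behind the counts is not named there. The members and gene lists were chosen with earlier results of these data known. Counts of gated cells were summed per library, filtered with filterByExpr, scaled with TMM and tested with edgeR 4.0.16 (R 4.3.3), with Benjamini-Hochberg adjustment over all genes tested. The 2 rule genes in that fit are counted among its 2849 genes, but no test result is given for them. CPM divides by the members' UMIs. The text draws its named genes from the 20 genes of smallest p (those called first), up to 4 of each list, the rule genes, markers, Cd274 and Pdcd1; the other genes named in comparing marker groups, and Nfkbia, Isg15 and Cxcl9, were picked after their values were seen. Tested on simulated counts, the fit recovered the direction of known changes, but called most of the larger ones and few of the smaller. The simulation gave every gene the same spread between libraries and held no single cells. It therefore does not cover genes whose UMIs lie mostly in 1 cell. Coordinates are GENCODE M21 (GRCm38, mm10) by gene ID. Doublets were scored with Scrublet (scanpy 1.11.5) and not removed, except in an alternative. Some named genes are not reported here. No library was left out, and DESeq2 1.42.0 served as an alternative.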

Additional observations from a re-analysis of the deposited data

How the results depend on the processing

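With 12 to 18 members per library, a few deep cells set the sums, and genes with few UMIs could not be tested. Of 948 values of 66 named genes under 15 alternatives, 850 kept their direction and side of the threshold, 76 passed it and 22, of 14 genes, changed sign. As a share of all gated dendritic cells the difference was 10.1 percentage points, and leaving out 1 library gave 0.107 to 0.333 points of kept barcodes. Genes called numbered 42 with no filter on low counts (in which Gzma, mostly from 1 cell, was among those called), 2 by DESeq2 (Ctsd and Cenpf), 3 with Cd209a at 3 UMIs or more, 2 with mitochondrial UMIs at no more than 5%, 4 with sums thinned to the smallest library, and 8 to 38 when 1 library was left out. With no filter, 37 differences were called against Xcr1 cells and 27 against monocytes; leaving out 1 library gave 0 to 53 and 0 to 4. The cause was not tested. Samples with the same replicate number share only that number (the correlation of their deviations over genes was -0.06); with the replicate block 4 genes were called. Signs changed with mitochondrial UMIs at no more than 5% for Bst2 (-0.39), Icam1 (0.32), Ccl4 (0.38) and Cd209b (-0.37), with Cd209a at 1 UMI or more for Ccl4 (0.15) and Cd209d (0.058), with Cd209a at 3 or more for Cd86 (0.036), and without the highest doublet scores for Cd209d (0.058). With 1 library left out, the log2 difference ranged from -0.73 to 1.58 for Klk1, -0.97 to 0.044 for H2-DMb2, -0.058 to 0.88 for Psmb8, -1.36 to 0.0074 for Icam1, -0.75 to 0.29 for Vsir, -0.96 to 0.091 for Cxcl16, -1.20 to 0.24 for Ccl4, -1.09 to 0.24 for Clec4a2, -0.16 to 0.93 for Clec10a, -0.15 to 0.75 for Mgl2, -1.22 to 0.88 for Cd209b and -0.29 to 0.19 for Cd209d. None of these genes was called in the main comparison.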
